A study of Mus musculus with 6 samples.

Results

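The genes described here encode the proteins of the mitochondrial ribosome, and they were compared between libraries labelled control and libraries labelled activated from mouse primary cortical neurons. Members were all genes whose mouse symbol is Mrpl or Mrps followed by a number and at most 1 letter. Of 83 genes whose symbols start with Mrpl or Mrps, 5 pseudogenes were left out, with 76 reads in all 6 libraries together. This left 78 members of the 55385 genes counted, 49 with Mrpl symbols, named for the large subunit, and 29 with Mrps symbols, named for the small subunit (2 of the latter belong to the large subunit, and 1 is no ribosomal protein). They lie on 17 chromosomes. The members were picked by symbol alone, but the set was chosen with earlier results of these data known.

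The mitochondrial ribosome, or mitoribosome, translates the few mRNAs of the mitochondrial genome, which encode core subunits of the respiratory chain and ATP synthase. Its ribosomal RNAs are transcribed inside mitochondria, whereas all its proteins are encoded in the nucleus, made in the cytosol and imported. Some of these proteins have counterparts in bacterial ribosomes, and others are found in the mitochondrial ribosome alone. Neurons depend heavily on oxidative phosphorylation, for which mitochondrial translation supplies essential subunits.

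The neurons came from cortices of embryonic day 18 mice and were kept for 16 days in vitro. All cultures, the controls included, had received the antimitotic drug cytosine arabinoside (AraC) at 2.5 uM on day 2 for 24 h. The 3 labelled control samples were untreated, and the 3 labelled activated samples were exposed to KCl for 5 min, washed and left to recover for 30 min. The KCl concentration is given as 50 mM in one label and as 50 uM in another. Whether the 3 samples of a group came from different cultures or animals is not stated in the labels. The p-values then measure only the spread between these samples, which may be technical. Total RNA depleted of ribosomal RNA was sequenced with strand-specific libraries, which held 17752711 to 32919975 reads assigned to genes.

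Depolarisation with KCl is known to induce Arc, Npas4, Fosb and Egr2, rapid activity-response genes of neurons, and these went against the labels. Arc averaged 176 CPM (counts scaled to the size of each library) in the libraries labelled control and 48.9 in those labelled activated. Npas4 averaged 159 and 44.3 CPM, Fosb 207 and 39.2 CPM, and Egr2 50.2 and 13.0 CPM. Every direction below is therefore a direction between libraries as labelled.

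Of the 77 members tested, 39 were called lower in the libraries labelled activated, 1 was called higher and 37 did not pass (edgeR's quasi-likelihood test, adjusted p below 0.05 over 18132 genes). The members called lower were 50.6% of those tested, beside 20.6% of all tested genes and 25.7% of protein-coding genes. These shares are not matched for expression level. Across all tested genes, those with a higher mean CPM tended to be lower (Pearson r of -0.38 with log mean CPM). The single member called higher, Mrpl33, stands beside a background of 16.2% of all tested genes called higher. The fitted log2 fold change was below 0 in 74 of 77 members (96.1%), beside 45.7% of all tested genes and 51.5% of protein-coding genes. In 54 members all 3 libraries labelled activated lay below all 3 labelled control, a state that 26.4% of all tested genes were in, and in 1 member all 3 lay above, beside 22.6%.

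The median member had a log2 fold change of -0.29, with the middle of the members between -0.44 and -0.16. The median of all tested genes was 0.04 and that of protein-coding genes -0.01. The decreases were modest. The median corresponds to a change of -18.3%, and the largest decrease, in Mrps34, to -37.6%. These values are relative to TMM scaling, which sets the libraries on a common scale by assuming that most genes do not change. An alternative scaling gave the libraries an equal mean log level of 16 excitatory and 18 inhibitory neuron markers. Under TMM 8 and 11 of these were called lower, beside 20.6% of all tested genes. Whether this scaling reflects the content of neurons was not tested. When the libraries were scaled to these markers of neurons instead, the members centred near 0, with a median of 0.03 and 34 of 77 below 0. Of the members 2 were called lower and 7 higher, where 3.33% of all tested genes were called lower and 50.4% higher. With that scaling all tested genes had a median of 0.36, and the members' median minus that of all tested genes was -0.334, against -0.335 under TMM. A change of scaling shifts all genes by nearly the same amount, so this gap was bound to stay near its TMM value. With total counts only, 51 members were called lower and 0 higher, beside 25.2% and 11.5% of all tested genes. Among all tested genes, called changes were 55.9% decreases under TMM, 68.7% with total counts and 6.19% with the neuron marker scaling.

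**Figure D1:**
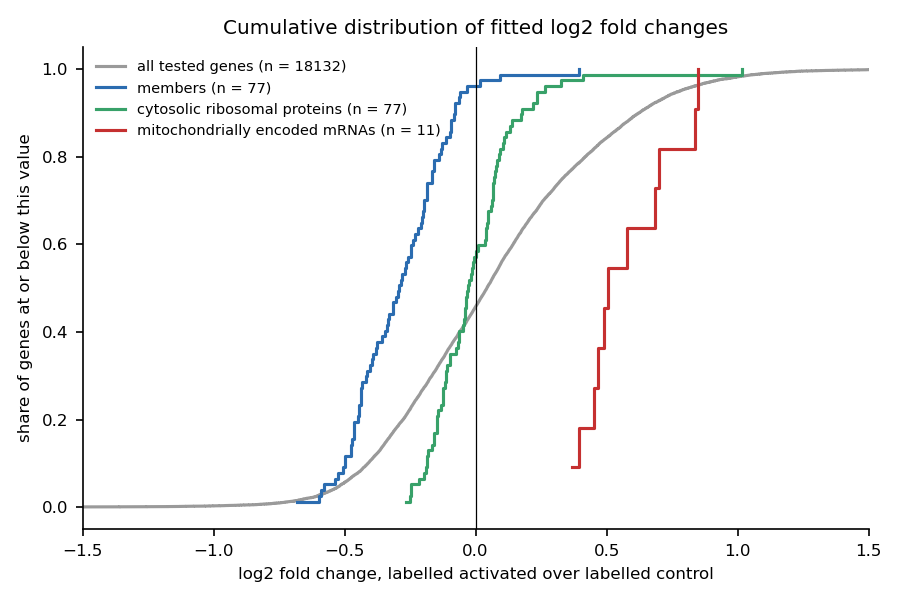
Cumulative share of genes (vertical axis) at or below each fitted log2 fold change (horizontal axis, labelled activated over labelled control, cut off at both ends) for 18132 tested genes, 77 members, 77 cytosolic ribosomal protein genes and 11 mitochondrially encoded mRNAs. The members' curve lies to the left, with a median of -0.29 (0.03 when scaled to neuron markers, where the median of all genes is 0.36), the cytosolic ribosomal proteins centre on -0.03, and the mitochondrially encoded mRNAs lie above 0.

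Markers of other cell types moved with the labels, and their part in the members' decrease was not tested. Of all tested genes 16.2% were called higher and 20.6% lower. Of 15 tested astrocyte markers 14 were called higher in the libraries labelled activated and 0 lower, and their summed level was 1533 to 1590 CPM in labelled control libraries and 2048 to 2507 CPM in labelled activated libraries. Of 13 tested endothelial, mural and fibroblast markers 8 were called higher (249.9 to 277.4 against 386.5 to 441.7 CPM), as were 8 of 13 tested microglia markers (66.4 to 90.9 against 80.6 to 154 CPM) and 4 of 7 tested oligodendrocyte lineage markers (60.0 to 65.4 against 78.6 to 90.3 CPM). Of 18 inhibitory neuron markers 11 were called lower (3279 to 3381 against 2559 to 2850 CPM). Of 16 excitatory neuron markers 8 were called lower and 1 higher, and their summed levels overlapped (4208 to 4412 against 4166 to 4526 CPM). No listed marker was at 0, and in bulk samples fewer cells of a type and less RNA per cell cannot be told apart.

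Under TMM scaling the fall was seen in every library labelled activated. The summed level of the members was 1170, 1237 and 1165 CPM in the libraries labelled control and 975, 953 and 1002 CPM in those labelled activated. The groups did not overlap, with means of 1191 ± 40.2 and 977 ± 24.7 CPM (SD, n = 3), a difference of -18.0% (2.5% when scaled to neuron markers). The library labelled activated replicate 1 had 62 members below every labelled control library, replicate 2 had 64 and replicate 3 had 67. The same count per library was not made over all tested genes. Of these, 26.4% had all 3 libraries labelled activated below all 3 labelled control. The 3 libraries labelled activated carried 2.79%, 2.24% and 2.16% of their scaled reads on mitochondrially encoded mRNAs, against 1.86%, 1.18% and 1.503% in the libraries labelled control.

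**Figure D2:**
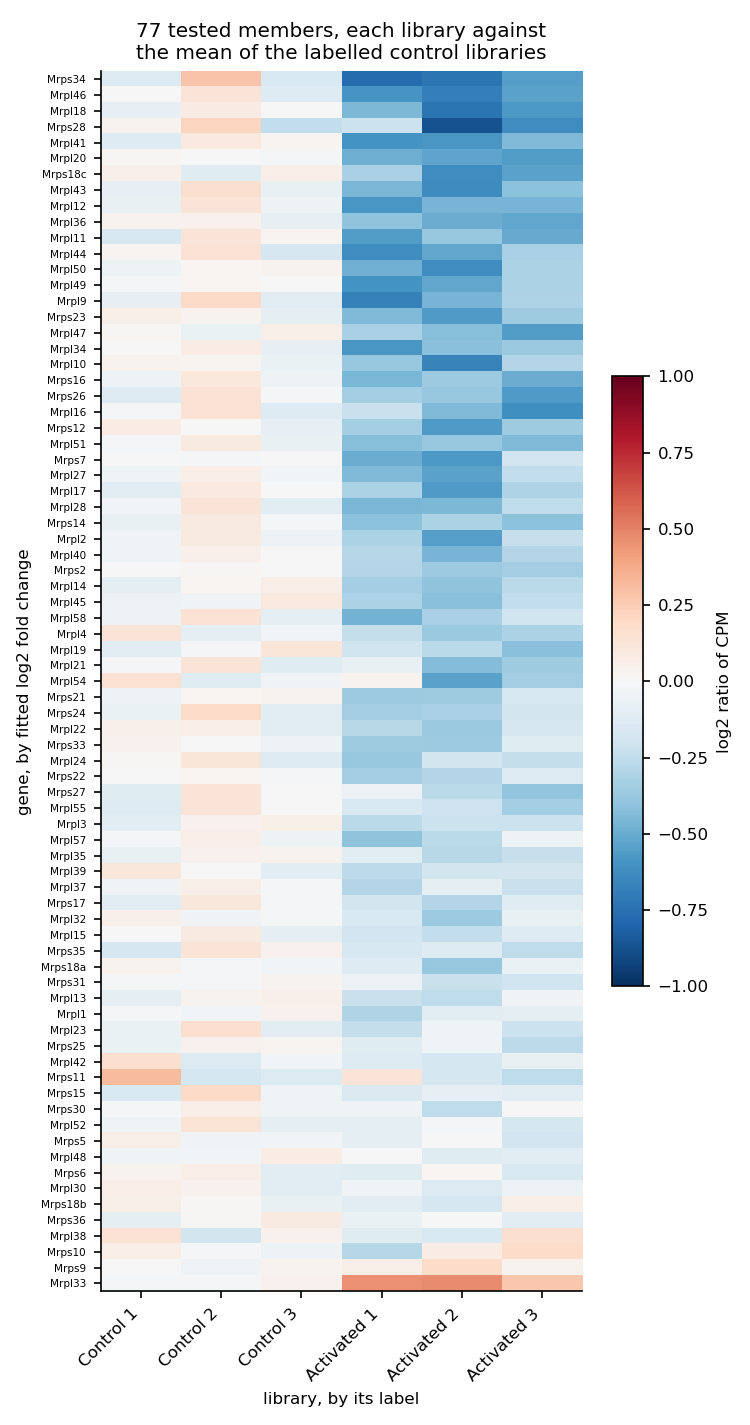
Heat map of the 77 tested members (rows, ordered by fitted log2 fold change) in the 6 libraries (columns, by label and replicate), where colour is the log2 ratio of a library's TMM-scaled CPM to the mean of the 3 libraries labelled control. All 3 libraries labelled activated are blue over most rows, with 62, 64 and 67 members below every labelled control library (not counted for all genes). Mrpl33 in the bottom row is red in all 3. Scaled to neuron markers, the median member is near 0 (0.03).

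The members were expressed at low to moderate levels. Tested members had 37 to 1155 reads per library, and their mean level ran from 2.17 CPM (Mrps28) to 31.0 CPM (Mrpl10), with a median of 13.7 CPM. Replicates were close, with a median coefficient of variation of 6.25% in labelled control libraries and 7.64% in labelled activated libraries. Counting kept the strands apart, and 8 members share exon bases with another gene on their own strand, where reads in both are counted for neither. The median standard error of a member's log2 fold change was 0.10. 

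Levels of different members were compared per length, as CPM per kilobase of merged exons (RPKM), where the median member stood at 4.90 RPKM. The highest was Mrpl41, a large-subunit protein particular to mitochondria, at 25.6 ± 2.04 RPKM in labelled control libraries and 17.6 ± 1.10 RPKM in labelled activated libraries. Mrps21, the counterpart of bacterial S21, was the highest with an Mrps symbol, at 14.2 ± 0.428 and 11.6 ± 0.967 RPKM. The lowest were Mrpl33, at 0.722 ± 0.0175 and 0.954 ± 0.0732 RPKM, and among Mrps symbols Mrps35, at 1.83 ± 0.192 and 1.61 ± 0.0707 RPKM. The annotation gives Mrpl33 merged exons of 7326 bases, beside a median of 2394 bases for the members, so its level per length depends on which annotated isoforms are made.

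Among large-subunit genes, all 3 tested genes of the stalk and its base were called lower, beside 20.6% of all tested genes. Scaled to neuron markers, 0 of 3 were called lower, beside 3.33% of all tested genes, with a median of -0.15. The stalk is the flexible arm of the ribosome that recruits translation factors, and Mrpl12 is its repeated tip protein. Mrpl12 was at 27.7, 31.7 and 28.0 CPM in the libraries labelled control and 19.5, 21.1 and 21.1 CPM in those labelled activated. The groups were well apart, with a fall of 0.50 on the log2 scale (SE 0.08, edgeR adjusted p = 0.000351). Mrpl10, which anchors the tip proteins to the ribosome, was at 36.5, 36.4 and 34.1 against 27.4, 22.5 and 29.1 CPM. It fell by 0.44 ± 0.09 on the log2 scale (edgeR adjusted p = 0.00184), and its lowest library was labelled activated replicate 2. Mrpl11, at the base of the stalk, was at 15.9, 19.5 and 18.1 against 12.1, 13.7 and 12.5 CPM (log2 fold change -0.48 ± 0.10, edgeR adjusted p = 0.00200).

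Mrpl53, the remaining protein listed with the stalk, had 0 reads in every library, which allows up to 0.0911 to 0.169 CPM by counting error alone (3 counts per library). Of its 790 annotated exon bases 695 are shared with Gm42688 on the same strand, and reads that fall in both genes are not counted for either. Mrpl1, the only member listed for the other arm of the large subunit, the L1 stalk, had a log2 fold change of -0.16 ± 0.09 and did not pass (edgeR adjusted p = 0.183).

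The central protuberance is the crest of the large subunit that contacts the small subunit. Of its 8 members 5 were called lower (62.5%, beside 20.6% of all tested genes), with a median log2 fold change of -0.33 for all 8. Scaled to neuron markers, 1 was called lower and 2 higher, where 3.33% of all tested genes were called lower and 50.4% higher. Mrpl18 was at 14.2, 15.8 and 14.9 CPM in labelled control libraries and 10.95, 9.02 and 10.04 CPM in labelled activated libraries. With a log2 fold change of -0.59 ± 0.10 (edgeR adjusted p = 0.000545), it was 1 of 2 members that were also called lower when scaled to neuron markers. Mrpl46 was at 8.23, 8.98 and 7.54 against 5.48, 5.14 and 5.68 CPM, a log2 fold change of -0.60 ± 0.12 (edgeR adjusted p = 0.00192).

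Around the exit of the tunnel, through which the nascent chain leaves the ribosome, 3 of 6 members were called lower, beside 20.6% of all tested genes. The median was -0.30. Scaled to neuron markers, 0 were called lower, beside 3.33% of all tested genes, with a median of 0.02. Mrpl45, which holds the mitoribosome at the inner membrane, was at 13.5, 13.7 and 15.02 against 11.3, 10.5 and 11.8 CPM. Its log2 fold change was -0.33 ± 0.10 (edgeR adjusted p = 0.0154), a call lost without labelled control replicate 3 (adjusted p = 0.0880) or labelled activated replicate 2 (adjusted p = 0.0559).

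Other large-subunit proteins with small p-values were of both evolutionary kinds. Mrpl20, the counterpart of a bacterial assembly protein of the large subunit, was nearly the same within each label: it was at 16.5, 16.5 and 16.3 CPM in labelled control libraries and 11.7, 11.4 and 11.2 CPM in labelled activated libraries. This is a log2 fold change of -0.53 ± 0.09 (edgeR adjusted p = 0.000387). Mrpl41 was at 20.7, 24.3 and 23.1 against 14.9, 15.1 and 16.7 CPM, a log2 fold change of -0.54 ± 0.09 (edgeR adjusted p = 0.000433). In both genes every library labelled activated was below every library labelled control.

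Mrpl43 and Mrpl49, further proteins of the mitochondrial large subunit that bacteria lack, behaved alike in this respect. Mrpl43 was at 18.2, 21.5 and 18.3 against 14.0, 12.4 and 14.5 CPM (log2 fold change -0.50 ± 0.10, edgeR adjusted p = 0.00145). Mrpl49 was at 19.0, 19.4 and 19.1 against 12.7, 13.4 and 15.4 CPM (log2 fold change -0.46 ± 0.09, edgeR adjusted p = 0.00142). Its labelled control libraries were nearly equal, and its highest labelled activated library was replicate 3.

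**Figure D3:**
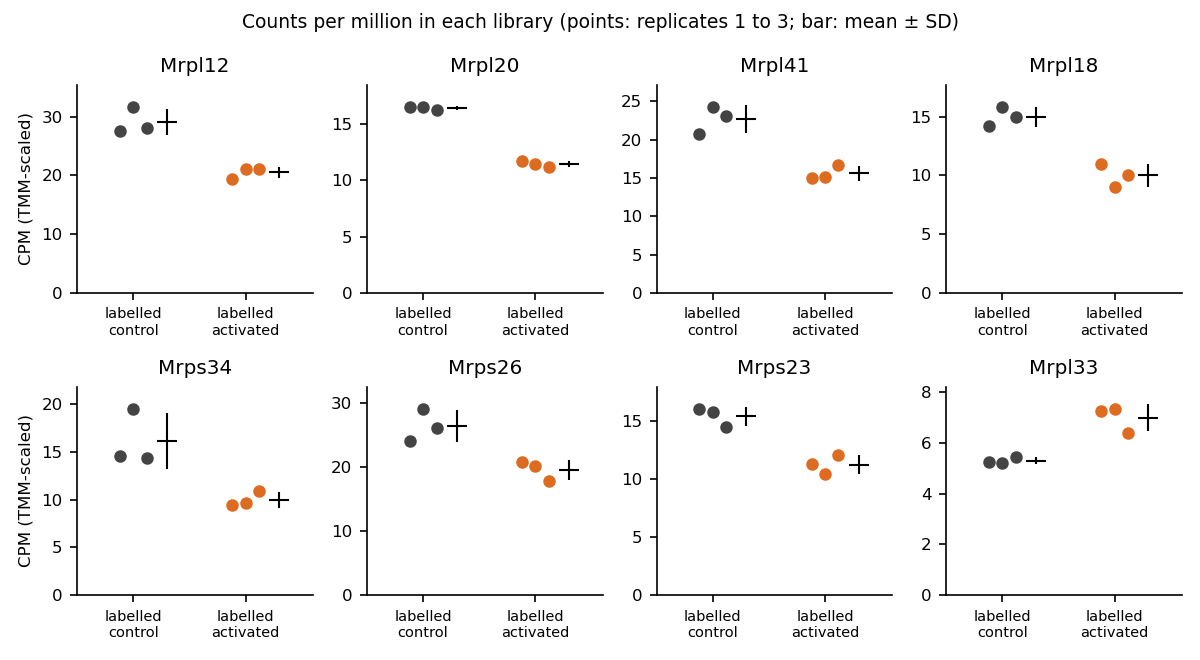
TMM-scaled CPM (vertical axes, from 0) of 8 members in each library, with points for the 3 replicates of each label and a bar for the mean ± SD. In Mrpl12, Mrpl20, Mrpl41, Mrpl18, Mrps34, Mrps26 and Mrps23 every library labelled activated lies below every library labelled control, and in Mrpl33 the order is the opposite.

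Of the 29 genes with Mrps symbols 11 were called lower (37.9%) and 0 higher, with a median log2 fold change of -0.25 (1 lower, 3 higher and 0.08 when scaled to neuron markers). In 16 of them all 3 libraries labelled activated lay below all 3 labelled control. Of the 48 tested Mrpl genes 28 were called lower (58.3%) and 1 higher, with a median of -0.32 (1 lower and 4 higher when scaled to neuron markers), and 38 had groups that did not overlap in that direction. Of all tested genes 20.6% were called lower, 16.2% were called higher and 26.4% did not overlap in that direction. Scaled to neuron markers, 3.33% of all tested genes were called lower and 50.4% higher. The summed level of Mrpl genes was 764 ± 24.9 in labelled control libraries and 614 ± 19.4 CPM under the activated label (SD, n = 3), a difference of -19.7%. The summed level of Mrps genes was 426 ± 14.98 and 363 ± 5.60 CPM, a difference of -14.8%. The ratio of the 2 sums was 1.80, 1.79 and 1.80 in the libraries labelled control and 1.68, 1.67 and 1.72 in those labelled activated, so it did not overlap between the labels, and it does not depend on how the libraries are scaled. Whether the 2 subunits differ was not tested.

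Mrps34, a small-subunit protein particular to mitochondria, had the largest decrease of all members. It was at 14.6, 19.5 and 14.4 CPM in the libraries labelled control and 9.40, 9.63 and 10.9 CPM in those labelled activated, with labelled control replicate 2 well above the other two. It fell by 0.68 ± 0.12 on the log2 scale (edgeR adjusted p = 0.000873) and was called lower also when scaled to neuron markers. Of its 2064 exon bases 763 are shared with Nme3 on the same strand, so its count rests on the remaining bases. Mrps26 and Mrps23 likewise have no bacterial counterpart. Mrps26 was at 24.0, 29.0 and 26.0 against 20.7, 20.1 and 17.7 CPM (log2 fold change -0.44 ± 0.09, edgeR adjusted p = 0.00217). Mrps23 was at 16.0, 15.8 and 14.5 against 11.3, 10.4 and 12.04 CPM (log2 fold change -0.45 ± 0.10, edgeR adjusted p = 0.00239).

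Small-subunit proteins with bacterial counterparts were among the lower genes as well. Mrps12 sits at the decoding centre, where codons are read, and was at 14.9, 14.2 and 13.4 against 11.2, 9.55 and 11.04 CPM (log2 fold change -0.42 ± 0.10, edgeR adjusted p = 0.00494). Mrps16 was at 11.02, 12.3 and 11.03 against 8.33, 8.87 and 8.09 CPM (log2 fold change -0.44 ± 0.10, edgeR adjusted p = 0.00469). Mrps2 was at 20.4, 20.7 and 20.5 against 16.7, 15.9 and 16.1 CPM (log2 fold change -0.34 ± 0.08, edgeR adjusted p = 0.00406). None of these 3 genes had overlapping groups. Mrps21, at 10.1, 10.6 and 10.7 against 8.15, 8.19 and 9.41 CPM, passed narrowly (log2 fold change -0.28 ± 0.10, edgeR adjusted p = 0.0471). That call was lost without any 1 of labelled control replicates 1, 2 and 3 and labelled activated replicates 1 and 2 (adjusted p from 0.0785 to 0.142). It was also lost with DESeq2 (adjusted p = 0.0874), with a replicate block (0.0874), with no filter on low counts (0.0598) and with the filter at 1 CPM (0.0645).

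Next to the threshold on the other side were Mrps28 (edgeR adjusted p = 0.05004), Mrpl37 (0.0506) and Mrpl24 (0.0523). Mrps28, the tested member with the lowest mean CPM, had a log2 fold change of -0.58 ± 0.22 with overlapping groups, and was called lower without labelled activated replicate 1 (-0.74). Mrpl37 had a log2 fold change of -0.20 ± 0.08 and Mrpl24 of -0.26 ± 0.10, and in both the groups did not overlap. The count of 39 is thus a property of this threshold, as 50 members had an unadjusted p below 0.05. The same count by unadjusted p was not made over all tested genes.

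Several small-subunit genes did not pass, and Mrps9 and Mrps10 among them had fold changes near 0. Mrps9 was at 17.8, 17.4 and 18.2 CPM in labelled control libraries and 18.5, 20.2 and 18.2 CPM in labelled activated libraries (log2 fold change 0.09 ± 0.08, edgeR adjusted p = 0.394). Mrps10 was at 17.0, 16.1 and 15.8 against 13.4, 17.1 and 18.5 CPM (log2 fold change 0.02 ± 0.11, edgeR adjusted p = 0.908). For both proteins, counterparts of bacterial proteins at the head of the small subunit, the groups overlapped, and the sign flipped when length and GC content entered the fit. Mrps35 was at 14.0, 17.2 and 16.2 against 14.1, 14.4 and 13.2 CPM and did not pass either (log2 fold change -0.19 ± 0.10, edgeR adjusted p = 0.148).

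Mrps18a, Mrps18b and Mrps18c are paralogues of bacterial S18 that occupy different places, Mrps18a in the large subunit and the other two in the small subunit. Mrps18c, on chromosome 5, was at 3.71, 3.30 and 3.75 against 2.86, 2.33 and 2.48 CPM, a log2 fold change of -0.51 ± 0.17 (edgeR adjusted p = 0.0276). Its groups did not overlap, but the call was lost without labelled control replicate 1 (-0.47), labelled control replicate 3 (-0.47) or labelled activated replicate 2 (-0.45). The call was also lost with DESeq2 (adjusted p = 0.0614) and with a replicate block (edgeR adjusted p = 0.0659). Mrps18a was at 23.1, 22.3 and 22.1 against 20.6, 17.2 and 21.5 CPM (log2 fold change -0.19 ± 0.09, edgeR adjusted p = 0.121) and was called lower without labelled activated replicate 3 (-0.26), while without labelled activated replicate 2, its lowest library, the value was -0.09. Mrps18b was at 10.95, 10.6 and 9.99 against 9.70, 9.34 and 10.98 CPM, with overlapping groups (log2 fold change -0.06 ± 0.10, edgeR adjusted p = 0.648). Differences between the paralogues were not tested.

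Mrps30, which despite its name also belongs to the large subunit, had a log2 fold change of -0.10 ± 0.09 and did not pass (edgeR adjusted p = 0.419). Mrps36 carries a ribosomal name but its protein is a subunit of the oxoglutarate dehydrogenase complex of the citric acid cycle. It was at 5.93, 6.39 and 6.77 against 6.07, 6.36 and 5.90 CPM, with overlapping groups (log2 fold change -0.06 ± 0.12, edgeR adjusted p = 0.715). Leaving these genes out would not change the number called, since neither of them passed.

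Mrpl33, the counterpart of the small bacterial protein L33, was the only member called higher. It was at 5.23, 5.21 and 5.44 CPM in the libraries labelled control and 7.26, 7.33 and 6.37 CPM in those labelled activated, so the groups did not overlap. It rose by 0.39 ± 0.12 on the log2 scale (edgeR adjusted p = 0.0231). The call was lost without labelled control replicate 1 (adjusted p = 0.0614), 2 (0.0566) or 3 (0.0597), without labelled activated replicate 1 (0.0689) or 2 (0.0668), and with total counts (0.0585). A replicate block also lost it, without (edgeR adjusted p = 0.062) and with length and GC offsets (0.0709). Its annotated gene spans chr5:31596935-31664384 (GRCm38), and 261 of its exon bases are shared with Gm43809 on the same strand.

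**Figure D4:**
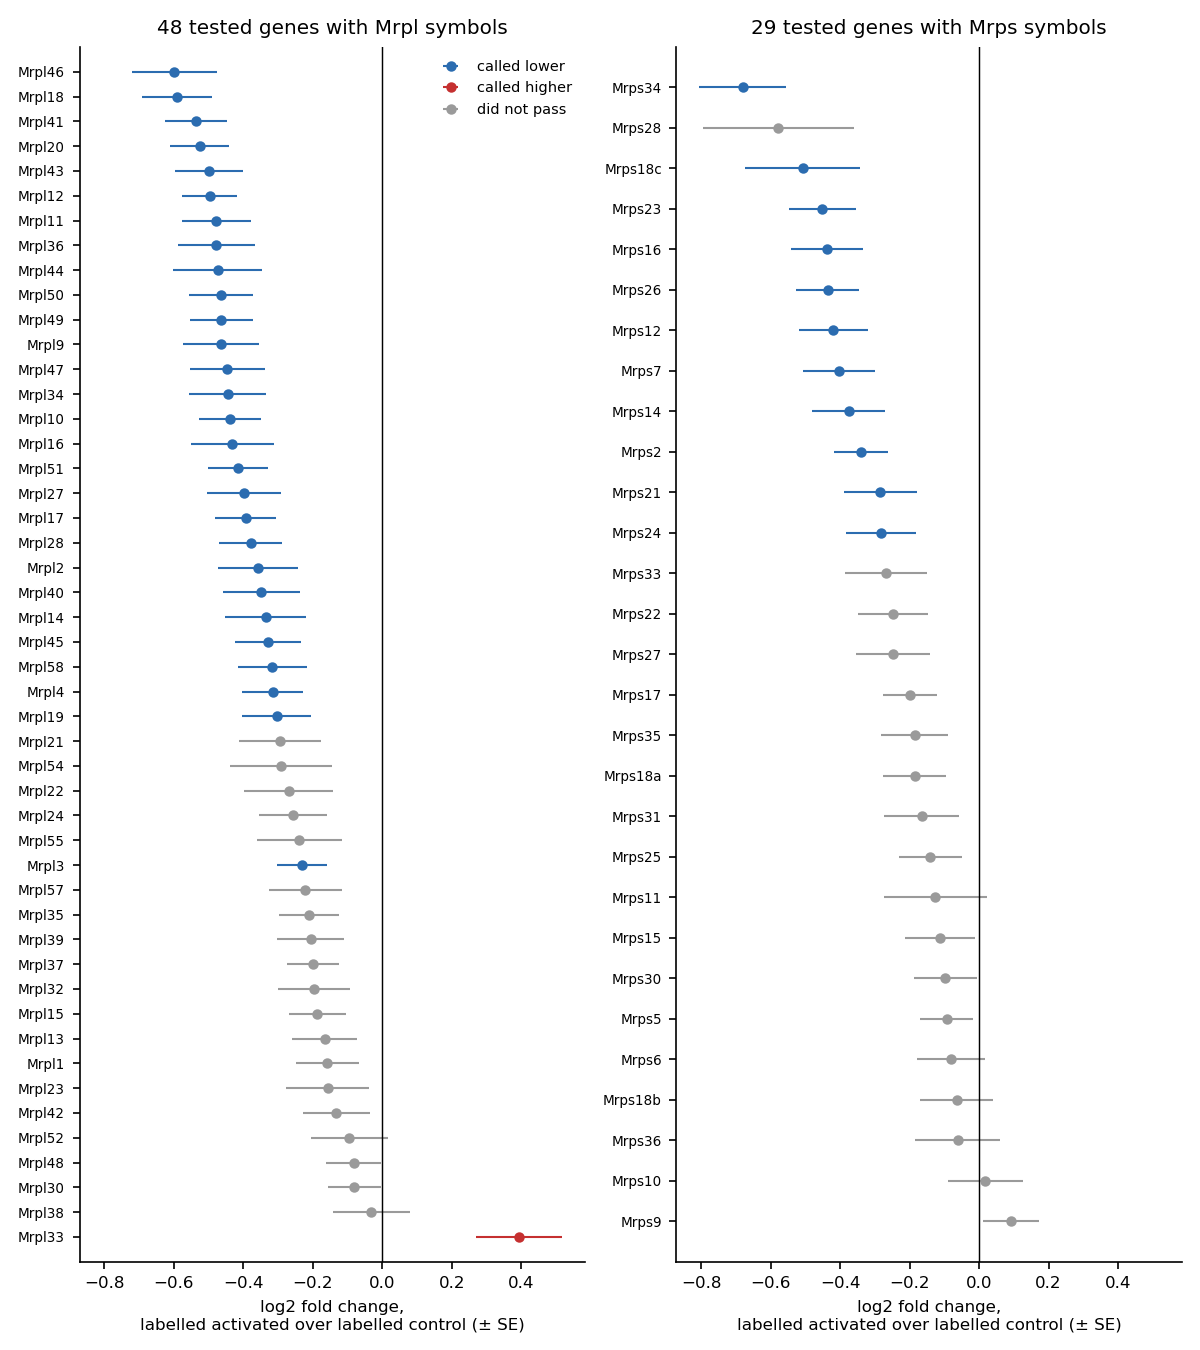
Fitted log2 fold change (labelled activated over labelled control, TMM scaling) with its SE for the 48 tested genes with Mrpl symbols (left) and the 29 with Mrps symbols (right), ordered by size and coloured by the call. Values reach from -0.68 (Mrps34) to 0.39 (Mrpl33), and 28 Mrpl and 11 Mrps genes are called lower (58.3% and 37.9%, beside 20.6% of all tested genes). The whole set shifts to a median of 0.03 when scaled to neuron markers.

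Both evolutionary kinds were among the genes called lower. Of 46 tested members with a bacterial counterpart 26 were called lower (56.5%) and 1 higher (median -0.31). Of 30 tested members particular to the mitochondrial ribosome 13 were called lower (43.3%) and 0 higher (median -0.26). Of all tested genes 20.6% were called lower and 16.2% higher. Scaled to neuron markers, the members with a counterpart were 1 lower and 5 higher (median 0.01) and the others 1 lower and 2 higher (median 0.06). There 3.33% of all tested genes were called lower and 50.4% higher. The SD of the fold changes over the 77 members was 0.18, beside a median standard error of 0.10 for a single member. Whether any of these groups differ from one another was not tested.

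The fold change varied with the length of the gene. Across the 77 members the log2 fold change and the log of merged exon length had a Pearson r of 0.48 (Spearman rho 0.48), so that shorter members tended to be lower. Across 18113 tested genes with a length the same r was -0.08 (rho -0.04). With log mean CPM in place of length, r was 0.1 across the members (rho 0.09). Across the 18113 genes it was -0.38 (rho -0.39). All these genes share the same 6 libraries and are not independent. Of the 39 members with merged exons of at most 2533 bases 24 were called lower and 0 higher (median -0.38), whereas of 5357 tested genes that short 836 were called lower and 635 higher (median 0.09). Of the 38 longer members 15 were called lower and 1 higher (median -0.20), and of 12756 longer tested genes 2896 were called lower and 2306 higher (median 0.03). With length and GC content in the fit, 50 members were called lower and 1 higher, and 23.9% of all tested genes were called lower and 13.1% higher.

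**Figure D5:**
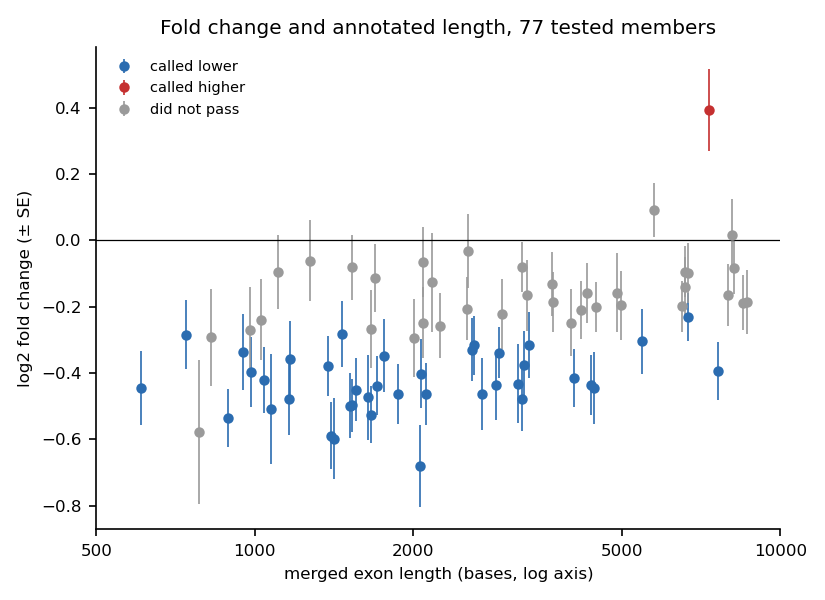
Fitted log2 fold change with its SE (vertical axis, TMM scaling) against merged exon length in bases (horizontal log axis) for the 77 tested members, coloured by the call. Members of at most 2533 bases have a median of -0.38 and longer ones of -0.20, and the only member called higher, Mrpl33, is among the longest.

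Of the nuclear genes for mitochondria, regulators such as NRF1, the ETS factor GABP and YY1 are known to act at promoters of ribosomal and respiratory chain genes. The letters of their core motifs were therefore counted in RefSeq promoter windows (GRCm38.p6, 250 bases before to 50 after a start), which were found for 69 of 78 members as 75 windows. Both strands were searched. The NRF1 core (GCGC, then 2 bases of any kind, then GCGC) was in 14 member windows (18.7%), beside 6.23% of 32851 windows of all genes and 11.9% of 14997 windows of tested genes. The ETS core (CCGGAAG) was in 26 (34.7%), beside 8.86% and 15.3%. The YY1 core (AAGATGGC) was in 12 (16%), beside 2.75% and 3.91%, and the same letters followed by GG in 5 (6.67%), beside 0.852% and 1.72%. At least 1 of the 3 cores was in 44 windows (58.7%), beside 16% and 27.4%. A match is a description of letters, and binding was not measured.

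The shares were also counted by outcome, for promoters of members called lower and of those that did not pass. Among 39 windows of members called lower, 9 held the NRF1 core (23.1%), 14 the ETS core (35.9%) and 5 the YY1 core (12.8%). Among 34 windows of members that did not pass, 5 held the NRF1 core (14.7%), 10 the ETS core (29.4%) and 7 the YY1 core (20.6%). The longer YY1 form was in 0 of the former and 5 of the latter (14.7%). These shares were not tested.

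Of the 27 windows with a match in the 150 bases before the start, the 6 that cover no annotated exon are shown, to set promoters of both outcomes side by side. Each is read 5′ to 3′ on the gene's strand, from RefSeq, and capitals mark a match on either strand.
Mrpl34 (chr8:71464776-71464925, plus strand): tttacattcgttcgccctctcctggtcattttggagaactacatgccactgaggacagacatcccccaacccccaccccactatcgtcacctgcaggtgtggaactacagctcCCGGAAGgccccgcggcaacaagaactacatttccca
Mrpl45 (chr11:97315566-97315715, plus strand): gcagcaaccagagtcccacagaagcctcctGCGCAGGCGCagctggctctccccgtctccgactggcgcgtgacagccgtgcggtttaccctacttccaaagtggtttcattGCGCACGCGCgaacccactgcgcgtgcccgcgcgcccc
Mrpl58 (chr11:115403602-115403751, plus strand): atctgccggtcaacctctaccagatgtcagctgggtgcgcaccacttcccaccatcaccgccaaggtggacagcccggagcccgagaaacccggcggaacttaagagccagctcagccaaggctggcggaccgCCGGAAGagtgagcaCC
Mrpl48 (chr7:100583131-100583280, minus strand): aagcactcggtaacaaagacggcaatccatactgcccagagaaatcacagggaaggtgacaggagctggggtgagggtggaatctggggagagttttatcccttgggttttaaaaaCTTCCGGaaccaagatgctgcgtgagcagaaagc
Mrpl52 (chr14:54426759-54426908, plus strand): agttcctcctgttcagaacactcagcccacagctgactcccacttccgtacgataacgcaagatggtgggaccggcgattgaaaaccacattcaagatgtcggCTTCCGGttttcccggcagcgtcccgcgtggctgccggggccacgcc
Mrps22 (chr9:98601680-98601829, minus strand): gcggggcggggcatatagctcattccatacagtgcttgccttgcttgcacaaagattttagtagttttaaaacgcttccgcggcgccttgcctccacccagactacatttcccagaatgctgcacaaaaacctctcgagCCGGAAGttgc
The first 3 belong to members called lower and the last 3 to members that did not pass. Mrpl48 has 4 windows, and the one shown, which starts inside its annotated gene, is the only one of them with a match. In the bases shown, Mrpl45 holds the NRF1 core at 2 places, and the other 5 hold the ETS core. Past the start, and so not shown, the Mrpl45 window has a further NRF1 core and the Mrpl52 window a further ETS core. In Mrpl58 the last 2 capitals begin a second ETS match that runs past the start.

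Mrpl34, the counterpart of a small bacterial large-subunit protein, was at 9.502, 9.95 and 8.96 against 6.31, 7.08 and 7.31 CPM (log2 fold change -0.44 ± 0.11, edgeR adjusted p = 0.00706). Mrpl58, a peptidyl-tRNA hydrolase that is also part of the large subunit, was at 16.3, 18.7 and 15.8 against 12.2, 13.5 and 14.7 CPM (log2 fold change -0.32 ± 0.10, edgeR adjusted p = 0.0235). The Mrpl58 call was lost without labelled control replicate 2 (adjusted p = 0.124), labelled activated replicate 1 (0.0871) or labelled activated replicate 2 (0.0560). Mrpl48 had a log2 fold change of -0.08 ± 0.08 (edgeR adjusted p = 0.438) and Mrpl52 of -0.09 ± 0.11 (edgeR adjusted p = 0.524), both with overlapping groups. Mrps22 did not pass (log2 fold change -0.25 ± 0.10, edgeR adjusted p = 0.0672), though its groups did not overlap, and it was called lower without labelled activated replicate 3 (-0.32).

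Mrpl46 and Mrps11 are a head-to-head pair on chromosome 7. In RefSeq, Mrpl46 starts at position 78783089 on the minus strand and Mrps11 at 78783131 on the plus strand, 42 bases apart. Mrpl46 was called lower, as above, while Mrps11 was at 10.9, 7.75 and 7.95 CPM in labelled control libraries and 9.58, 7.76 and 7.34 CPM in labelled activated libraries. Its groups overlapped (log2 fold change -0.13 ± 0.15, edgeR adjusted p = 0.525), and without labelled control replicate 1, its highest library, the value was 0.06. The difference between the 2 genes was not tested, and 173 of their exon bases overlap on opposite strands.

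Several other genes of the mitoribosome carry names outside the Mrpl and Mrps series. Of 5 such proteins 3 were called lower and 0 higher, beside 20.6% and 16.2% of all tested genes. Scaled to neuron markers, 0 were called lower and 1 higher, beside 3.33% and 50.4% of all tested genes. Dap3, a GTP-binding protein of the small subunit, was at 50.9, 60.8 and 51.0 against 41.0, 40.4 and 40.8 CPM (log2 fold change -0.41 ± 0.07, edgeR adjusted p = 0.000897). Aurkaip1 of the small subunit (-0.38, edgeR adjusted p = 0.00228) and Gadd45gip1 of the large subunit (-0.49, edgeR adjusted p = 0.00629) were also lower. Chchd1 (-0.18, edgeR adjusted p = 0.255) and Ptcd3 (0.03, edgeR adjusted p = 0.731), both of the small subunit, did not pass.

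The 2 mitochondrial ribosomal RNAs, the partners of these proteins, were higher in the libraries labelled activated. The log2 fold change was 0.62 ± 0.11 for mt-Rnr1 (edgeR adjusted p = 0.000927) and 0.58 ± 0.12 for mt-Rnr2 (edgeR adjusted p = 0.00169). The libraries were depleted of ribosomal RNA, so these levels also depend on how complete the depletion was, which was not tested. The mRNAs that the mitoribosome translates were higher too, with 9 of 11 tested called higher (beside 16.2% of all tested genes), 0 called lower and a median of 0.50. In 6 of the 11 all 3 libraries labelled activated lay above all 3 labelled control, beside 22.6% of all tested genes. With length and GC content in the fit, 5 were called higher (beside 13.1% of all tested genes), with a median of 0.28. For mt-Co1, a core subunit of cytochrome c oxidase, the libraries were at 9860, 6490 and 7960 CPM under the control label and at 14800, 12000 and 12700 CPM under the activated label (log2 fold change 0.70 ± 0.13, edgeR adjusted p = 0.00106). mt-Nd5 (0.69) and mt-Nd2 (0.85), subunits of complex I, were higher as well (edgeR adjusted p = 0.00269 and 0.00451). Counted levels of these mRNAs were very uneven, with a labelled control mean of 16.2 CPM for mt-Co2 beside 8100 CPM for mt-Co1. Whether all their reads were counted was not tested.

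Of 27 tested genes that assemble the mitoribosome or modify its RNA, 4 were called lower and 1 higher, beside 20.6% and 16.2% of all tested genes, with a median of -0.10. Scaled to neuron markers, 1 was called lower and 9 higher, beside 3.33% and 50.4% of all tested genes, with a median of 0.22. Rbfa, an assembly factor of the small subunit, was at 14.2, 15.5 and 16.0 against 7.86, 9.45 and 10.6 CPM (log2 fold change -0.69 ± 0.11, edgeR adjusted p = 0.000364). Ngrn (-0.50, edgeR adjusted p = 0.00328) and the helicase Ddx28 (-0.42, edgeR adjusted p = 0.0161), both needed for the large subunit, were lower, though Ddx28 lost its call without labelled control replicate 2 (-0.32) or labelled activated replicate 1 (-0.39). Mettl17, which acts on the small subunit, was the 1 called higher (0.34, edgeR adjusted p = 0.0175), a call lost without labelled control replicate 3 (0.36) or labelled activated replicate 2 (0.23). The Mettl17 call was also lost with total counts (0.28) and with length and GC offsets plus a replicate block (0.30).

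Among 13 translation factors 3 were called lower and 2 higher, near the shares of all tested genes (20.6% and 16.2%), with a median of -0.14. Scaled to neuron markers, 1 was called lower and 5 higher, beside 3.33% and 50.4% of all tested genes, with a median of 0.18. Tufm, the elongation factor that delivers aminoacyl-tRNA, was at 33.8, 41.4 and 34.9 against 25.5, 22.5 and 27.1 CPM (log2 fold change -0.55 ± 0.09, edgeR adjusted p = 0.000452). Gfm1, the translocation factor, was lower (-0.28, edgeR adjusted p = 0.00634). Guf1, a back-translocating elongation factor, went the other way, at 35.5, 34.7 and 35.2 against 50.3, 52.0 and 44.5 CPM (log2 fold change 0.48 ± 0.07, edgeR adjusted p = 0.000216). Gfm2, which helps to recycle ribosomes, was also higher (0.25, edgeR adjusted p = 0.0192), a call lost without labelled control replicate 3 (0.23) or labelled activated replicate 2 (0.17). The Gfm2 call was also lost with total counts (0.19) and with length and GC offsets plus a replicate block (0.22).

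Of 22 genes for mitochondrial aminoacyl-tRNA synthesis 3 were called lower (13.6%, beside 20.6% of all tested genes) and 0 higher, with a median of -0.04. Scaled to neuron markers, 1 was called lower and 12 higher, beside 50.4% of all tested genes called higher, with a median of 0.28. The 3 called lower were Gatc, a subunit of the glutaminyl-tRNA amidotransferase (-0.59, edgeR adjusted p = 0.000504), and Gars and Kars, synthetases that serve both cytosol and mitochondria (-0.53 and -0.34, edgeR adjusted p = 0.000770 and 0.00444). Of 24 genes for mitochondrial transcription and mRNA handling 3 were called lower (12.5%, beside 20.6%) and 3 higher (12.5%, beside 16.2%), with a median of -0.09. Scaled to neuron markers, 0 were called lower and 9 higher, beside 3.33% and 50.4% of all tested genes, with a median of 0.24. Tfam, which packages and transcribes mitochondrial DNA, was at 17.8, 20.9 and 19.2 against 13.2, 13.3 and 14.0 CPM (log2 fold change -0.51 ± 0.09, edgeR adjusted p = 0.000661). Lrpprc, which stabilises mitochondrial mRNAs, was lower (-0.29, edgeR adjusted p = 0.00579), and Mterf1b, related to a mitochondrial transcription terminator, was higher at about 1 CPM (0.84, edgeR adjusted p = 0.0332). The Mterf1b call was lost without labelled control replicate 2 or 3, without labelled activated replicate 1 or 2, and with DESeq2 (adjusted p from 0.0586 to 0.143). Length and GC offsets also lost it, without (edgeR adjusted p = 0.0659) and with a replicate block (0.0666).

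Of 13 regulators of nuclear genes for mitochondria 5 were called lower (38.5%, beside 20.6% of all tested genes) and 0 higher, with a median of -0.14. Scaled to neuron markers, 1 was called lower and 5 higher, beside 3.33% and 50.4% of all tested genes, with a median of 0.19. Ppargc1a encodes PGC-1alpha, a coactivator of mitochondrial biogenesis, and was at 71.1, 67.3 and 78.8 against 49.5, 45.8 and 49.7 CPM. Its groups were far apart (log2 fold change -0.59 ± 0.07, edgeR adjusted p = 6.12e-05). Myc (-0.46, edgeR adjusted p = 0.00585) and Esrra, a nuclear receptor that works with PGC-1alpha (-0.33, edgeR adjusted p = 0.00633), were also lower. Nrf1 (-0.14, edgeR adjusted p = 0.258) and Gabpa (0.05, edgeR adjusted p = 0.642), did not pass. Yy1 was at 47.2, 49.7 and 49.7 against 41.6, 39.0 and 44.6 CPM and was called lower (-0.23, edgeR adjusted p = 0.0181), a call lost without labelled control replicate 2 or 3 or labelled activated replicate 1 or 2 (adjusted p from 0.0530 to 0.0724). The motif letters counted above are those of these 3 factors.

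For scale, 2 related families were measured in the same libraries. Of all tested genes 20.6% were called lower and 16.2% higher. Scaled to neuron markers, these shares were 3.33% and 50.4%, with a median of 0.36. Of 77 tested cytosolic ribosomal protein genes 7 were called lower (9.09%) and 5 higher, with a median of -0.03 (0 lower, 57 higher and 0.29 when scaled to neuron markers). Of 75 tested nuclear genes for the respiratory chain and ATP synthase 57 were called lower (76.0%) and 0 higher, with a median of -0.34 (8 lower, 10 higher and -0.02 when scaled to neuron markers). The members, at 39 lower and 1 higher of 77 with a median of -0.29, had a median nearer that of the latter family under TMM (0.03 when scaled to neuron markers). Differences between the families were not tested.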

How the data were processed

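Total RNA of 6 samples was measured, 3 labelled control and 3 labelled activated. The authors deposited counts of reads per gene for each sample, made with STAR 2.5.2b on the mm10 build, per the submitters' processing notes, which also name edgeR. The annotation release was not given in the sources used here. Reverse-strand counts were used, since opposite-strand reads made up 4.05% to 4.29%. The 4 lines naming no gene held 42.3% to 50.7% of reads and stayed out of library sizes and tests. GENCODE release M21 gave names and coordinates (GRCm38) for 55144 of 55385 identifiers.

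Genes were kept by filterByExpr (minimum count 10, minimum total 15), scaled by TMM and tested in edgeR 4.0.16 (under R 4.3.3) with its quasi-likelihood test, with Benjamini-Hochberg adjustment over 18132 genes and a threshold of 0.05. The test was tried on simulated counts with known changes first. Each SE is the size of the log2 fold change divided by the root of the F statistic. CPM are TMM-scaled, and RPKM are those CPM per kilobase of merged exons. In each sentence on a gene, values run through replicates 1, 2 and 3 of labelled control, then of labelled activated.

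The members and all lists were chosen with earlier results of these data known. Named by rule were the 6 smallest p of Mrpl and of Mrps genes, members called higher, the highest and lowest RPKM, untested members, Mrps18 paralogues, Mrpl10, Mrpl12, Mrps36, the 3 smallest p of each pathway list, and mitoribosome proteins with other symbols. Chosen after their values were seen were Mrpl1, Mrpl11, Mrpl24, Mrpl37, Mrpl46, Mrps9, Mrps10, Mrps11, Mrps28, Mrps30, Mettl17, Gfm2, Nrf1, Gabpa, Yy1, the label check genes and those with promoters shown.

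Alternatives were DESeq2 1.42.0 size factors and its Wald test, total counts, scaling to neuron markers, edgeR's likelihood-ratio test, no filter, at least 1 CPM in 3 libraries, unstranded counts, a replicate block, length and GC offsets (splines with 4 degrees of freedom) without and with the block, and each library left out.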

Additional observations from a re-analysis of the deposited data

How the results depend on the processing

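The number of members called lower (39) ranged from 28 to 43 with 1 library left out, and the number called higher from 0 to 1. In the same fits 15.2% to 21.2% of all tested genes were called lower and 10.7% to 17.9% higher. Of the 39, 25 were called lower with every library left out in turn, and 32 under every other alternative except the neuron marker scaling. That scaling gave 2 lower and 7 higher (Mrpl30, Mrps9, Mrps5, Mrpl33, Mrpl48, Mrpl38 and Mrps10), beside 3.33% and 50.4% of all tested genes. As under TMM, 75 of 77 members lay below the all-gene median, a count that a nearly equal shift of all genes leaves as it was. Deviations from the group means correlated at -0.01, -0.18 and -0.21 between libraries of the same replicate number. Between libraries of different numbers they correlated at -0.04 to 0.21. With 3 libraries per group, these values cannot settle whether samples were paired. The replicate block gave 32 lower and 0 higher. Total counts, and length and GC offsets with the block, also gave 0 higher, beside 11.5% and 10.6% of all tested genes. Under total counts and the neuron marker scaling the members' median was -0.361 and 0.03, and the change of their summed level -21.8% and 2.5%. Under the same 2 settings medians were -0.17 and 0.22 for assembly genes, -0.207 and 0.181 for translation factors, -0.11 and 0.278 for synthetases, -0.153 and 0.236 for transcription and mRNA handling, and -0.205 and 0.186 for regulators. The neuron marker scaling gave -0.06 for mitoribosome proteins with other symbols and 0.921 for mitochondrial ribosomal RNAs, and length and GC offsets gave 0.324 for the latter and -0.146 for transcription and mRNA handling.

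Signs reversed under the neuron marker scaling for Mrpl1 (0.16), Mrpl24 (0.06), Mrpl37 (0.12), Mrpl48 (0.24), Mrpl52 (0.23), Mrpl58 (0.0027), Mrps11 (0.20), Mrps18a (0.13), Mrps18b (0.25), Mrps21 (0.04), Mrps22 (0.07), Mrps30 (0.22), Mrps35 (0.14), Mrps36 (0.26), Chchd1 (0.15), Gfm1 (0.04), Lrpprc (0.04) and Yy1 (0.09). Other reversals were Mrps18b (0.09) and Mrps30 (0.03) with unstranded counts, Mrps11 without labelled control replicate 1 (0.06, with a range of -0.24 to 0.06 over the libraries left out), and Mrps9 with length and GC offsets (-0.07, with the block -0.07). Mrps10 was below 0 with total counts (-0.05), no filter (-0.0011), unstranded counts (-0.01), length and GC offsets (-0.01, with the block -0.03), and without labelled control replicate 3 (-0.0052) or labelled activated replicates 2 (-0.0084) or 3 (-0.08). Ptcd3 was below 0 with total counts (-0.04), unstranded counts (-0.0011) and length and GC offsets (-0.06, with the block -0.06). The neuron marker scaling moved the median of all tested genes from 0.043 to 0.364, so small decreases under TMM changed sign there by this common shift. For the other reversals the cause was not tested. Depth limits members with few reads, and 0 reads for Mrpl53 leave it untested.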
